A study of Mus musculus with 22 samples.

Results

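The angiogenic ligands are 10 secreted factors that act on blood or lymph vessels, and their transcripts were followed through 4 populations of cells sorted from mouse mammary tumors. They were taken by symbol: *Vegfa*, *Vegfb*, *Vegfc* and *Pgf* of the VEGF family, the angiopoietins *Angpt1*, *Angpt2* and *Angpt4*, the angiopoietin-like *Angptl2* and *Angptl4*, and *Apln*. All 10 were found among the 41388 genes counted and all 10 passed the filter on low counts, which left 15020 genes. After removal of the GFP+ tumor cells, sorting on TdTomato and CD45 had divided the stroma into TdTOSX single positive (TdTOSX+;CD45-), double negative (TdTOSX-;CD45-), double positive (TdTOSX+;CD45+) and CD45 single positive (TdTOSX-;CD45+) cells, and the question put to each ligand is which of these populations holds its RNA, in each genotype. The hosts were C57BL/6 mice at postnatal day 56. Wild type means Osx-cre;Ai9, in which a tetracycline-responsive *Sp7* (Osx) promoter drives Cre and Cre switches on the TdTomato reporter Ai9, so that TdTomato marks a past of *Sp7* promoter activity and not present *Sp7* expression. Cdh2-cKO means Cdh2-cKO;Ai9, a conditional knockout of N-cadherin that carries the same reporter and whose Cre driver the labels do not name. There were 4 wild type and 6 Cdh2-cKO mice, from which 2 libraries of TdTOSX single positive cells and 3 of every other population were sequenced per genotype, 22 libraries in all. The labels call the libraries biological replicates without tying each to a mouse. The sources differ on the tumors: the sample labels call them orthotopic MMTV-BO1 tumors, the design text of the same deposit calls them subcutaneous, and the study's own account of the experiment gives subcutaneous PyMT-BO1 cells.

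New vessels in a tumor grow under ligands that bind receptor tyrosine kinases on endothelial cells. VEGF-A drives sprouting through VEGFR2 (*Kdr*), PlGF (*Pgf*) and VEGF-B bind VEGFR1 (*Flt1*), and VEGF-C acts on lymphatic endothelium through VEGFR3 (*Flt4*). Angiopoietin-1, which mural and mesenchymal cells make, activates the receptor TIE2 (*Tek*) and quiets vessels, whereas angiopoietin-2, which endothelial cells store and release, acts on TIE2 in a context-dependent manner and loosens vessel walls. *Angpt4* encodes the mouse relative of human angiopoietin-4, also a TIE2 ligand. The angiopoietin-like proteins resemble angiopoietins but do not bind TIE2: ANGPTL4 inhibits lipoprotein lipase, and ANGPTL2 is a secreted protein of fat and connective tissue. Apelin, made by endothelial tip cells among others, signals through the G protein-coupled receptor APLNR.

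Between 16594228 and 26784003 reads were counted on genes per library, with a median of 18977040. At these depths 3 counts, the smallest signal taken as present, stood for 0.1003 to 0.2007 normalized CPM (counts scaled to library size by TMM factors), a floor that covers counting error only. *Cdh2*, the targeted gene, held 4.90 to 8.97 normalized CPM in wild type and 12.5 to 16.8 in Cdh2-cKO TdTOSX single positive libraries, a log2 fold change of 1.08 (95% interval -0.69 to 2.85, adjusted p = 0.661). In double negative libraries it held 4.52 to 7.48 and 13.1 to 19.2, a log2 fold change of 1.37 (-0.09 to 2.83, adjusted p = 0.600), so in both CD45- populations the libraries labelled Cdh2-cKO lay above the wild type libraries. Counts are summed over all exons of the gene, inside and outside the deleted part, so *Cdh2* does not check the genotype labels here, and the libraries are called as they are labelled. *Sp7* had at most 2 counts in any group. Summed leukocyte markers (6 genes, CPM per kilobase of gene length) were 2504 to 3218 in the 12 CD45+ libraries and 57.4 to 473 in 8 of the 10 CD45- libraries. The others, wild type double negative replicate 3 and Cdh2-cKO TdTOSX single positive replicate 1, held 1470 and 1054, which is 53.3% and 38.2% of the CD45+ mean. Wild type CD45 single positive replicate 2 stood apart by lymphocyte and neutrophil transcripts, with a B cell marker sum of 1586 where the other CD45+ libraries had at most 14.2. The fibroblast marker sum was 812 to 7902 in CD45- and 10.5 to 54.4 in CD45+ libraries, and the endothelial sum 13.1 to 135 and 2.09 to 33.1. The endothelial sum of 33.1 was that of wild type CD45 single positive replicate 2, and the other CD45+ libraries held at most 6.47. In CD45+ libraries *Pecam1* of this list reached 199 normalized CPM, and each of its other genes at most 9.46 (*Vwf*). Keratins *Krt8*, *Krt18* and *Krt19* were also higher in CD45- than in CD45+ cells, whereas *Epcam* and *Cdh1* of the same epithelial list were lower, in both genotypes. Populations are thus mixtures, and more cells of a type cannot be told apart from more RNA per cell.

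In wild type tumors 8 of the 10 ligands were higher in the CD45- than in the CD45+ populations at an adjusted p of at most 0.05 (edgeR's quasi-likelihood test), against 26.4% of all genes tested. In Cdh2-cKO tumors 8 of 10 were higher, against 27.8% of all genes. With a log2 fold change of at least 2 as well, 7 passed in wild type and 6 in Cdh2-cKO tumors, against 15.8% and 16.1% of all genes. The median log2 fold change of the 10 was 3.54 and 3.33, where that of all genes was -0.06 and 0.01. *Angpt4*, *Angpt1*, *Apln*, *Angptl4*, *Angptl2*, *Vegfc* and *Angpt2* passed in both genotypes, *Vegfb* in wild type and *Pgf* in Cdh2-cKO tumors, and *Vegfa* in neither. For 6 ligands, *Vegfc*, *Angpt1*, *Angpt4*, *Angptl2*, *Angptl4* and *Apln*, every one of the 10 CD45- libraries lay above every one of the 12 CD45+ libraries, which was the case for 11.3% of all genes. Within a genotype it held for 8 ligands in wild type (14.8% of all genes) and 6 in Cdh2-cKO tumors (22.1%). Without the 2 CD45- libraries that held the most leukocyte transcripts, an alternative added after the data were seen, 8 ligands passed in wild type and 7 in Cdh2-cKO tumors. Without wild type double negative replicate 3 and CD45 single positive replicate 2 there were 9 in each. Over all genes 8001 and 7025 were called in either direction in the first of these fits and 8511 and 8267 in the second. With all libraries 7627 and 7580 were called. The mean of each ligand was highest in a CD45- population in both genotypes, in 14 of 20 cases in double negative and in 6 in TdTOSX single positive cells. None of the 20 differences between these populations passed, so the split is one of means only. Some means were nearly equal, with log2 fold changes of 0.005 for wild type *Angpt2* and -0.005 for Cdh2-cKO *Angpt4*. Double negative libraries also had 2.99 to 13.7% mitochondrial and 1.04 to 5.28% ribosomal RNA reads. The other libraries had 1.38 to 4.19% and 0.421 to 1.48%. These shares overlap, since both count mitochondrial ribosomal RNA. Summed epithelial markers (8 genes, CPM per kilobase) were 350 to 1409 in double negative and 20.8 to 595 in TdTOSX single positive libraries. In CD45- libraries *Krt18* and *Krt8* of this list averaged 716 and 191 normalized CPM, *Cdh1* 21.2, *Krt19* 5.57 and *Epcam* 0.266. *Elf3*, *Esrp1* and *Cldn4* reached at most 0.567 there. The part of the read shares or of this marker sum in the order of the populations was not tested.

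**Figure D1:**
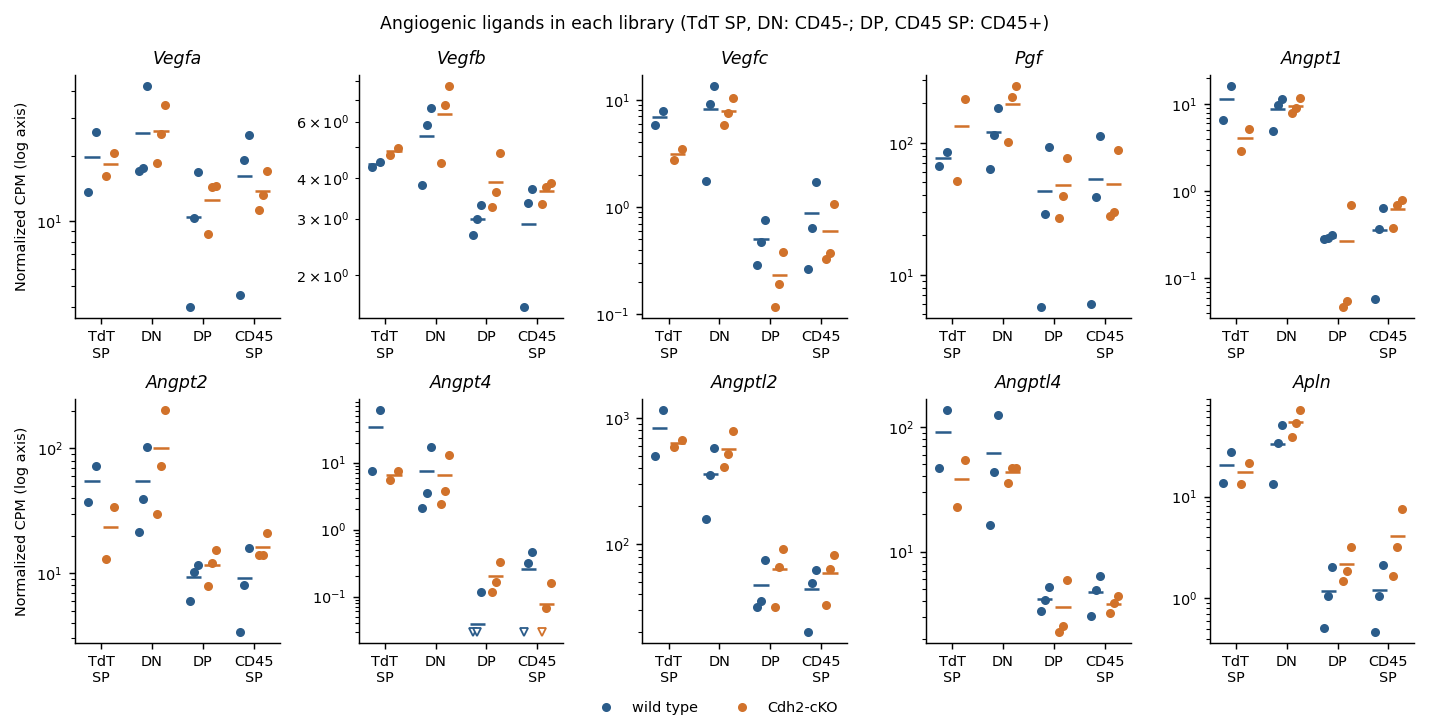
Normalized CPM (log axis, scaled per panel) of the 10 ligands in each of the 22 libraries, by population (TdT SP, TdTOSX single positive; DN, double negative; DP, double positive; CD45 SP, CD45 single positive) and genotype (blue, wild type; orange, Cdh2-cKO), with bars at the means and open triangles for libraries with 0 counts. *Angpt4* falls from 2.09 to 60.6 in CD45- libraries to at most 0.464 in CD45+ libraries, whereas the libraries of *Vegfa* overlap.

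Promoter sequence is shown for 4 ligands: *Angpt4*, which had the largest difference, *Apln* and *Angptl2*, whose CD45- and CD45+ libraries did not overlap, and *Pgf*, whose libraries did and whose level per kilobase was the highest in CD45+ cells. RefSeq promoter windows (GRCm38.p6, 250 bases before to 50 after a start site) were found for 7 of the 10 ligands, in 9 windows, and not for *Angpt1*, *Angpt2* and *Angptl4*. The 250 bases before the start site are printed 5′ to 3′ on the gene's strand, with capitals for any match, on either strand, to the hypoxia response core ACGTG, the TATA box TATAAA or the GC box GGGCGG. They lie at chr2:151910957-151911206 (plus strand, *Angpt4*), chr2:33215711-33215960 (plus strand, *Angptl2*), chrX:48034854-48035103 (minus strand, *Apln*) and chr12:85177314-85177563 (minus strand, *Pgf*).
Angpt4: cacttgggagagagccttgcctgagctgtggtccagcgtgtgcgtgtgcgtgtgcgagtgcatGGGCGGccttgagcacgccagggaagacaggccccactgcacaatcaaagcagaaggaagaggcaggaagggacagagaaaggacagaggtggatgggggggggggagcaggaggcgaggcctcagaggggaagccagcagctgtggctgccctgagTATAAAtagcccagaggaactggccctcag
Angptl2: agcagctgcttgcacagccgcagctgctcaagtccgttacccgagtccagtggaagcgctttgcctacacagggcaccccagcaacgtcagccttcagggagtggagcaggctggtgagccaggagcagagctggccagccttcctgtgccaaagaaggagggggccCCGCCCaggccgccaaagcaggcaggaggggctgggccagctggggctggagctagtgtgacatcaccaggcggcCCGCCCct
Apln: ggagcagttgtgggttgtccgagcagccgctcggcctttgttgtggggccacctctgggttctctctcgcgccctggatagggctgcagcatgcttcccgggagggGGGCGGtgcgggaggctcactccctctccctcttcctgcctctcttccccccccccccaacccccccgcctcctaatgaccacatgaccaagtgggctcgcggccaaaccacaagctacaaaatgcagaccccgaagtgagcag
Pgf: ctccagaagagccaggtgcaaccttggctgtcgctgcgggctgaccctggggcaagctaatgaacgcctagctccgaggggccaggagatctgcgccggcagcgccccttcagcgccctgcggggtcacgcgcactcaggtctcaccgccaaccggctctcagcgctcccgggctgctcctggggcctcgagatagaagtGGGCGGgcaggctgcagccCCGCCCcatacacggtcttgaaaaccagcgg
*Angpt4* had the only TATA box among the 9 windows, 30 bases before its start site, and 13.6% of all 32851 RefSeq windows held this motif. A GC box was in 8 of the 9 windows, against 35.7% of all windows. The hypoxia response core was in 1 window, that of a second start site of *Vegfa*, against 19.6% of all windows. A match is a description of these letters and not a binding site.

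*Vegfa* (ENSMUSG00000023951, GRCm38 chromosome 17 from 46016993 to 46032377) was present in every population. Wild type libraries held 25.8 and 13.5 normalized CPM in TdTOSX single positive, 42.2, 17.5 and 16.9 in double negative, 16.9, 4.00 and 10.3 in double positive and 19.1, 24.8 and 4.55 in CD45 single positive cells. In Cdh2-cKO tumors the values were 20.5 and 16.2, then 34.2, 18.4 and 25.1, then 14.3, 8.68 and 14.5, and 11.2, 13.1 and 17.1 in the same order. The order of the means was double negative, TdTOSX single positive, CD45 single positive and double positive in both genotypes, and the libraries of each pair of neighbours overlapped. CD45+ libraries averaged 57.3% of the CD45- mean. The log2 fold change between CD45- and CD45+ cells was 0.79 in wild type (95% interval -0.07 to 1.65, adjusted p = 0.115) and 0.73 in Cdh2-cKO tumors (-0.13 to 1.59, adjusted p = 0.145). Without the wild type libraries double negative replicate 3 and CD45 single positive replicate 2 the first was 1.13 (adjusted p = 0.0344).

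*Pgf* (ENSMUSG00000004791, chromosome 12 from 85166639 to 85177296) was the VEGF family member with the highest level per kilobase of gene length. Wild type TdTOSX single positive libraries had 85.6 and 66.7 normalized CPM and double negative libraries 183, 114 and 63.0. Wild type double positive libraries had 93.6, 5.72 and 29.1, and CD45 single positive libraries 113, 38.6 and 5.96. Over both genotypes the highest double positive library was 16.4 times the lowest and the highest CD45 single positive library 19.0 times the lowest, and 4 CD45+ libraries lay above the lowest CD45- library. In Cdh2-cKO tumors TdTOSX single positive libraries had 216 and 51.6 normalized CPM, double negative libraries 271, 102 and 220, double positive libraries 77.1, 27.1 and 39.2, and CD45 single positive libraries 27.7, 88.8 and 30.1. The log2 fold change of CD45- over CD45+ cells was 1.01 in wild type (-0.42 to 2.44, adjusted p = 0.227) and 1.75 in Cdh2-cKO tumors (0.31 to 3.19, adjusted p = 0.0408). The second was 1.06 (adjusted p = 0.257) without Cdh2-cKO TdTOSX single positive replicate 1, one of the libraries with leukocyte transcripts. The difference between the genotypes was 0.74 (-1.28 to 2.77, adjusted p = 0.880). CD45+ cells held 34.97% of the CD45- mean of *Pgf*.

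*Vegfb* (ENSMUSG00000024962, chromosome 19 from 6982473 to 6987651) varied least. It ran from 3.804 to 7.76 normalized CPM, with a median of 4.84, in CD45- libraries and from 1.60 to 4.79, with a median of 3.35, in CD45+ libraries. The wild type CD45- libraries were all above the wild type CD45+ libraries, with a log2 fold change of 0.74 (0.23 to 1.24, adjusted p = 0.0168). In Cdh2-cKO tumors it was 0.55 (0.05 to 1.05, adjusted p = 0.0639), and the libraries overlapped. These are the smallest differences of the family, and both changed sides of the threshold with the processing.

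*Vegfc* (ENSMUSG00000031520, chromosome 8 from 54077532 to 54186454), the lymphatic growth factor, was the VEGF family member that separated the populations. Wild type TdTOSX single positive libraries held 7.91 and 5.78 normalized CPM and double negative libraries 13.6, 9.17 and 1.76, the last in replicate 3, which also held leukocyte transcripts. Cdh2-cKO TdTOSX single positive libraries held 3.48 and 2.75, and double negative libraries 10.4, 5.80 and 7.59. The 12 CD45+ libraries spanned 0.117 to 1.71 (median 0.378), all under the lowest CD45- library, although the highest of them, 1.71 in wild type CD45 single positive replicate 2, came close to it. *Vegfc* was 11.2-fold higher in CD45- cells in wild type (log2 3.49, 2.37 to 4.62, adjusted p = 5.09e-05; 4.20 without wild type double negative replicate 3 and CD45 single positive replicate 2) and 13.3-fold higher in Cdh2-cKO tumors (log2 3.74, 2.57 to 4.91, adjusted p = 4.11e-05).

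*Angpt1* (ENSMUSG00000022309, chromosome 15 from 42424727 to 42676977), the TIE2 agonist, was a low transcript in every CD45- library and close to the floor in CD45+ libraries. In wild type tumors it had 16.3 and 6.51 normalized CPM in TdTOSX single positive and 9.87, 11.4 and 4.91 in double negative cells. In Cdh2-cKO tumors it had 2.87 and 5.24, and 9.03, 8.01 and 11.9. The CD45+ libraries spanned 0.0472 to 0.803 (median 0.340), and 3 of the 12 had 3 counts or fewer. It was 30.1-fold higher in CD45- cells in wild type (log2 4.91, 3.71 to 6.12, adjusted p = 2.45e-06) and 15.3-fold in Cdh2-cKO tumors (log2 3.94, 2.77 to 5.10, adjusted p = 2.37e-05). Without Cdh2-cKO double positive replicate 3, which held 0.701, the latter was 32.97-fold.

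*Angpt2* (ENSMUSG00000031465, chromosome 8 from 18690263 to 18741562) spread widely within double negative cells. These libraries had 39.1, 103 and 21.6 normalized CPM in wild type and 72.2, 29.6 and 202 in Cdh2-cKO tumors. TdTOSX single positive libraries had 37.2 and 72.1, and 33.996 and 13.1. The CD45+ libraries spanned 3.41 to 20.9 (median 11.9), and 5 of them lay above the lowest CD45- library, Cdh2-cKO TdTOSX single positive replicate 2. The groups did not overlap in wild type. *Angpt2* was 5.92-fold higher in CD45- cells in wild type (log2 2.56, 1.49 to 3.64, adjusted p = 0.000596) and 3.54-fold in Cdh2-cKO tumors (log2 1.82, 0.77 to 2.88, adjusted p = 0.00578). It lies on the opposite strand within *Mcph1* with no shared exon. The counting is not stated to use strand.

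*Angpt4* (ENSMUSG00000027460, chromosome 2 from 151911210 to 151945337) had the largest difference of the 10. Wild type TdTOSX single positive libraries held 60.6 and 7.53 normalized CPM and double negative libraries 16.9, 3.53 and 2.09. Cdh2-cKO TdTOSX single positive libraries held 7.39 and 5.59, and double negative libraries 3.82, 2.42 and 13.3. The highest value came from the library with the highest fibroblast marker sum, wild type TdTOSX single positive replicate 1. In the 12 CD45+ libraries together only 32 reads were counted, against 2657 in the 10 CD45- libraries, and 4 CD45+ libraries had 0. It was 149.5-fold higher in CD45- cells in wild type (log2 7.22, 5.27 to 9.18, adjusted p = 7.51e-06) and 48.0-fold in Cdh2-cKO tumors (log2 5.58, 3.74 to 7.43, adjusted p = 6.74e-05), with folds of this size resting on the few CD45+ reads. The wild type fold was 70.4 without TdTOSX single positive replicate 1, 89.4 without double negative replicate 1 and 393.7 without double positive replicate 1. The study lists *Angpt4* among its leading genes of wild type TdTOSX single positive cells, chosen on these same samples, so its height there is no independent evidence. That list is described as against double negative cells, while the study's methods give a test against the mean of all other populations. Here *Angpt4* had a log2 fold change of 2.17 against double negative cells (edgeR, adjusted p = 0.281).

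*Angptl2* (ENSMUSG00000004105, chromosome 2 from 33216069 to 33247717) had the highest mean per kilobase of the ligands in TdTOSX single positive cells of both genotypes. Wild type libraries had 1152 and 503 normalized CPM in TdTOSX single positive and 575, 354 and 158 in double negative cells, and Cdh2-cKO libraries 593 and 674, and 412, 515 and 794. The lowest of these, double negative replicate 3, was above the highest CD45+ library, 91.1 in Cdh2-cKO double positive replicate 3. CD45+ libraries had 20.4 to 91.1 with a median of 56.0, on average 9.35% of the CD45- mean. *Angptl2* was 11.95-fold higher in CD45- cells in wild type (log2 3.58, 2.68 to 4.48, adjusted p = 3.32e-06) and 9.84-fold in Cdh2-cKO tumors (log2 3.30, 2.41 to 4.19, adjusted p = 9.07e-06). It lies on the opposite strand within *Ralgps1*, with no shared exon.

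*Angptl4* (ENSMUSG00000002289, chromosome 17 from 33773750 to 33781575), the lipase inhibitor, had 136 and 46.5 normalized CPM in wild type TdTOSX single positive and 125, 43.6 and 16.3 in double negative libraries. In Cdh2-cKO tumors it had 22.96 and 54.0, and 35.6, 47.2 and 46.5. CD45+ libraries kept to 2.29 to 6.34 with a median of 3.97, and the lowest CD45- value was again double negative replicate 3. *Angptl4* was 16.7-fold higher in CD45- cells in wild type (log2 4.06, 3.09 to 5.04, adjusted p = 1.95e-06) and 10.99-fold in Cdh2-cKO tumors (log2 3.46, 2.50 to 4.42, adjusted p = 1.19e-05).

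*Apln* (ENSMUSG00000037010, chromosome X from 48025146 to 48034853) had 50.8, 33.3 and 13.4 normalized CPM in wild type and 70.4, 38.8 and 52.4 in Cdh2-cKO double negative libraries. TdTOSX single positive libraries had 13.5 and 27.1, and 21.2 and 13.4, so that in Cdh2-cKO tumors every double negative library was above both TdTOSX single positive libraries. The CD45+ libraries spanned 0.471 to 7.49 (median 1.76), all lower than the CD45- libraries. *Apln* was 21.3-fold higher in CD45- cells in wild type (log2 4.41, 3.36 to 5.47, adjusted p = 1.83e-06) and 10.2-fold in Cdh2-cKO tumors (log2 3.35, 2.36 to 4.35, adjusted p = 2.37e-05).

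**Figure D2:**
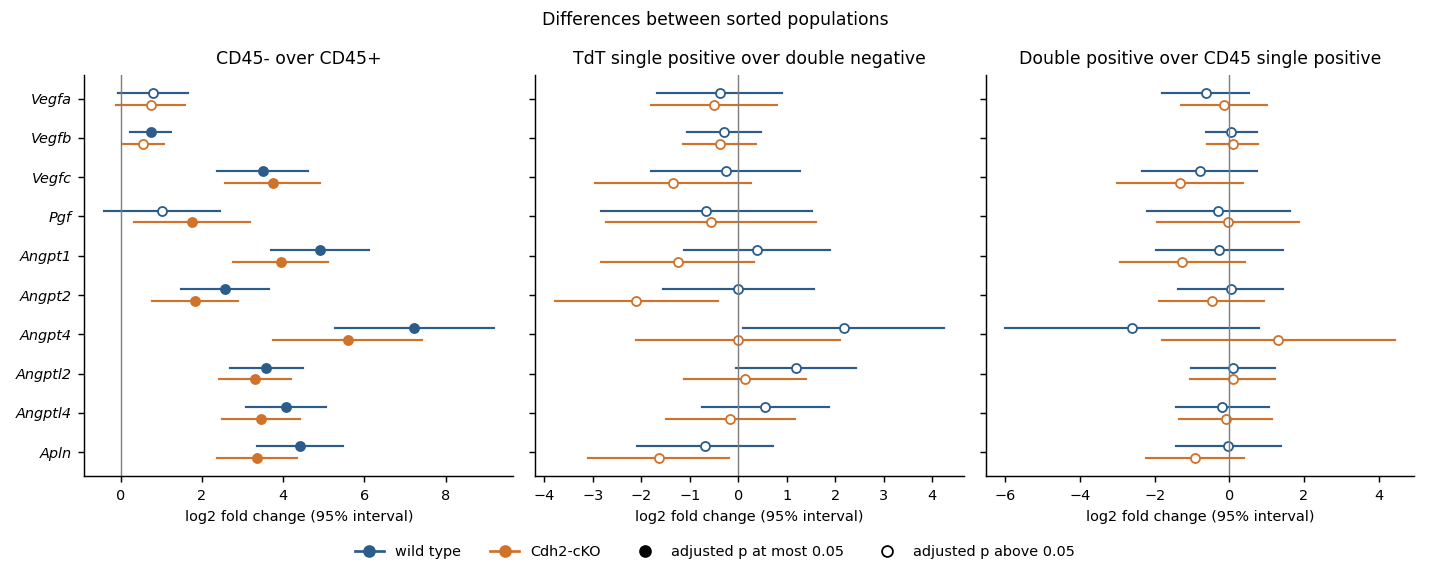
Log2 fold changes of the 10 ligands with 95% intervals (edgeR) for CD45- over CD45+ cells, TdTOSX single positive over double negative cells and double positive over CD45 single positive cells, in wild type (blue) and Cdh2-cKO (orange) libraries, filled where the adjusted p is at most 0.05. In the first panel 16 of 20 points are filled, in the others 0 of 20 each.

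Divided by gene length, 2 ligands dominated. In CD45- cells *Angptl2* averaged 91.2 and *Pgf* 86.8 normalized CPM per kilobase, 37.6% and 35.8% of the sum of the 10 means. The order of their group means depended on the population. In each of the 2 CD45- populations a Cdh2-cKO library had the opposite order to its group mean, and the order was not tested. *Angptl2* led in TdTOSX single positive cells, with 132 against 48.1 CPM per kilobase in wild type and 101 against 84.7 in Cdh2-cKO tumors. *Pgf* led in double negative cells, with 75.9 against 57.6 and 125 against 91.2. Over all CD45- libraries *Angptl4* followed with 17.4, *Angpt2* with 16.9 and *Apln* with 10.6. *Vegfa* averaged 5.37 CPM per kilobase, *Angpt4* 5.28, *Vegfc* 3.63, *Vegfb* 3.35 and *Angpt1* 2.02. In CD45+ cells *Pgf* averaged 30.4 CPM per kilobase and made up 61.2% of the sum, before *Angptl2* with 8.52, *Angpt2* with 3.14, *Vegfa* with 3.08 and *Vegfb* with 2.09. *Angpt4* and *Angpt1* were last there, with 0.0620 and 0.0907.

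**Figure D3:**
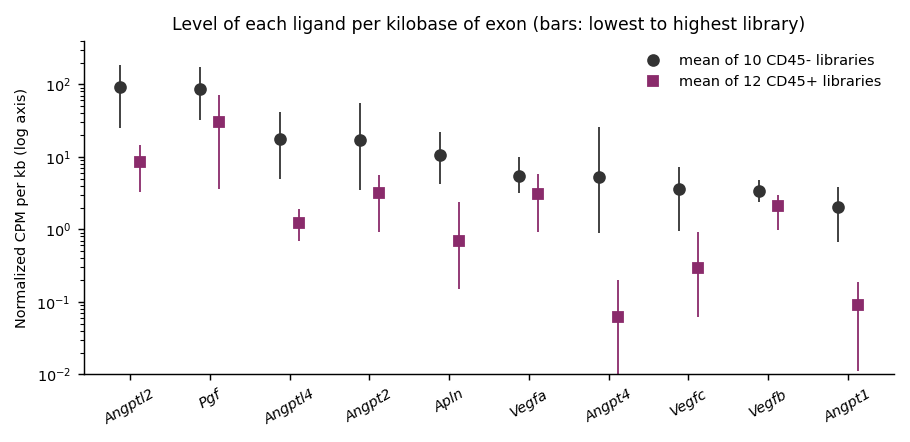
Normalized CPM per kilobase of gene length (log axis) of each ligand, as the mean of the 10 CD45- libraries (circles) and of the 12 CD45+ libraries (squares), with bars from the lowest to the highest library, that of *Angpt4* in CD45+ cells running below the axis to 0. *Angptl2* and *Pgf* lie above the others in CD45- cells at 91.2 and 86.8. This order holds for the group means of TdTOSX single positive cells, though not for every library, and is the opposite for those of double negative cells. *Pgf* leads in CD45+ cells at 30.4.

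Set against the mean of the other 3 populations, wild type TdTOSX single positive cells had 7 of the 10 ligands higher, against 20.8% of all genes, and wild type double negative cells had 7 higher, against 15.6%. In Cdh2-cKO tumors 3 were higher in TdTOSX single positive cells (background 11.7%) and 7 in double negative cells (24.8%). The 7 were in each case *Vegfc*, the 3 angiopoietins, the 2 angiopoietin-like ligands and *Apln*, and the 3 were *Angpt4*, *Angptl2* and *Angptl4*. None of the 10 was higher in a CD45+ population, where 8.96% of all genes were higher in wild type double positive and 10.1% in CD45 single positive cells, and 12.4% and 11.1% in Cdh2-cKO tumors. In wild type 6 were lower in double positive (14.8% of all genes) and 5 in CD45 single positive cells (12%), and in Cdh2-cKO tumors 5 (14.9%) and 4 (11.3%). Among the largest values were *Angpt4* in wild type TdTOSX single positive cells, with a log2 fold change of 6.27 (4.57 to 7.96, adjusted p = 1.26e-05), and *Apln* in wild type double negative cells, with 3.39 (2.40 to 4.38, adjusted p = 6.24e-05). *Vegfa*, *Vegfb* and *Pgf* passed in no population of either genotype.

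Between TdTOSX single positive and double negative cells 0 of the 10 ligands passed in either genotype under edgeR's test, where 4 genes of 15020 (0.0266%) passed in wild type and 3 (0.02%) in Cdh2-cKO tumors. These counts over all genes depended on the fit and reached 500 and 1151 under the alternatives. At an unadjusted p under 0.05 there was 1 ligand in wild type and there were 2 in Cdh2-cKO tumors. The one in wild type was *Angpt4*, with a log2 fold change of 2.17 (0.10 to 4.25, adjusted p = 0.281). Its group means were 34.1 ± 37.5 (SD, n = 2) and 7.53 ± 8.19 normalized CPM (SD, n = 3), and without TdTOSX single positive replicate 1 the log2 fold change was -0.0016 (adjusted p = 1). In Cdh2-cKO tumors they were *Angpt2*, with -2.10 (-3.79 to -0.42, adjusted p = 0.245), and *Apln*, with -1.64 (-3.10 to -0.18, adjusted p = 0.315). Under limma's voomWithQualityWeights *Apln* was at -1.55 with an adjusted p of 0.0488, the 1 ligand called in this comparison by any of the tests. The intervals of the remaining ligands all held 0 and reached from -2.95 to 2.43 on the log2 scale.

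Between double positive and CD45 single positive cells 0 of the 10 passed in either genotype, with 0 of 15020 genes called (0%) and 0 ligands at an unadjusted p under 0.05. DESeq2 likewise called 0 ligands. *Angptl2* and *Vegfb* had the narrowest intervals around 0 in wild type, at 0.11 (-1.02 to 1.24) and 0.05 (-0.63 to 0.73). For *Angpt4* the few reads left an interval of -6.01 to 0.81.

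Within a population 0 of 40 comparisons of libraries labelled Cdh2-cKO with wild type passed, with 1 gene of 15020 called in TdTOSX single positive cells (0.00666%) and 0 genes (0%) in each other population. One ligand had an unadjusted p under 0.05: *Apln* in CD45 single positive cells, with 1.67, 7.49 and 3.19 normalized CPM in Cdh2-cKO and 1.04, 2.13 and 0.471 in wild type libraries (log2 1.75, 0.38 to 3.12, adjusted p = 0.479). The largest absolute value was that of *Angpt4* in TdTOSX single positive cells, at -2.39 (-4.79 to 0.01, adjusted p = 0.473), where wild type replicate 1 alone held 60.6 and the other 3 libraries 5.59 to 7.53 normalized CPM. Without it the log2 fold change was -0.21. The median of the 10 ligands was -0.76 in TdTOSX single positive, 0.18 in double negative, 0.30 in double positive and 0.11 in CD45 single positive cells. The differences between genotypes of the 3 population contrasts above gave 0 of 30 called (edgeR and DESeq2) and 0 at an unadjusted p under 0.05, where 1 gene of 15020 was called in the TdTOSX single positive against double negative contrast.

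**Figure D4:**
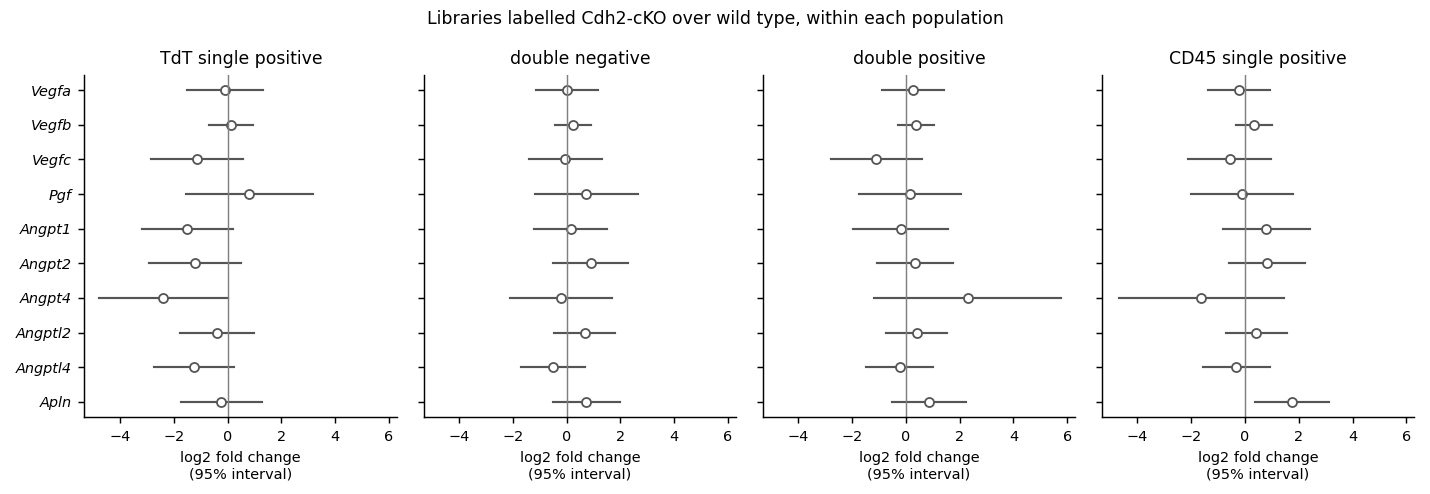
Log2 fold changes of libraries labelled Cdh2-cKO over wild type with 95% intervals (edgeR) for the 10 ligands in each population. All 40 points are open, meaning an adjusted p above 0.05, and the widest intervals belong to *Angpt4*, which runs from -1.17 to 5.77 in double positive cells.

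Across the 10 CD45- libraries, log2 levels of the ligands were set beside the log2 summed markers of endothelial cells, pericytes, fibroblasts, epithelial cells and leukocytes, 50 relations in all. With permutation p-values adjusted over the 50, 11 passed 0.05 by Pearson's r and 2 of them also by Spearman's rho. *Angpt2* followed the endothelial markers (r = 0.873, permutation p = 0.00076; rho = 0.939, permutation p = 0.00022, adjusted 0.0070, n = 10), and r was 0.827 without the 2 libraries farthest from the median of the marker sum. *Angpt4* followed the fibroblast markers (r = 0.884, permutation p = 0.00067; rho = 0.927, permutation p = 0.00028, adjusted 0.0070, n = 10), with r = 0.757 without the 2 farthest. It also rose with the pericyte markers (r = 0.831, adjusted permutation p = 0.0224, n = 10), where rho = 0.842 had an adjusted p of 0.0582. The libraries come from 4 groups of 2 or 3, too few to compute the relation within a group, and the labels do not say which came from the same tumor. The permutations exchanged all 10 libraries freely, so these p-values do not account for the groups and include differences between them. *Vegfc* reached r = 0.866 with the endothelial markers (permutation p = 0.00129), but rho = 0.709 had an adjusted p of 0.127. *Vegfc* and *Angpt1* were lower where leukocyte markers were higher, with r = -0.866 (adjusted permutation p = 0.0160) and -0.825 (0.0224). Their rho was -0.830 (adjusted p = 0.0582) and -0.758 (adjusted p = 0.127). *Angptl4* also passed by r with fibroblast (0.858), pericyte (0.821) and leukocyte markers (-0.796). *Angptl2* passed by r with pericyte (0.823) and fibroblast markers (0.816). None of these relations of *Angptl4* and *Angptl2* passed by rho. The part of the mixture of cell types in the differences between populations was not tested. *Tek* and *Tie1*, which belong to the endothelial list, had under 3 counts in some double positive and CD45 single positive libraries.

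**Figure D5:**
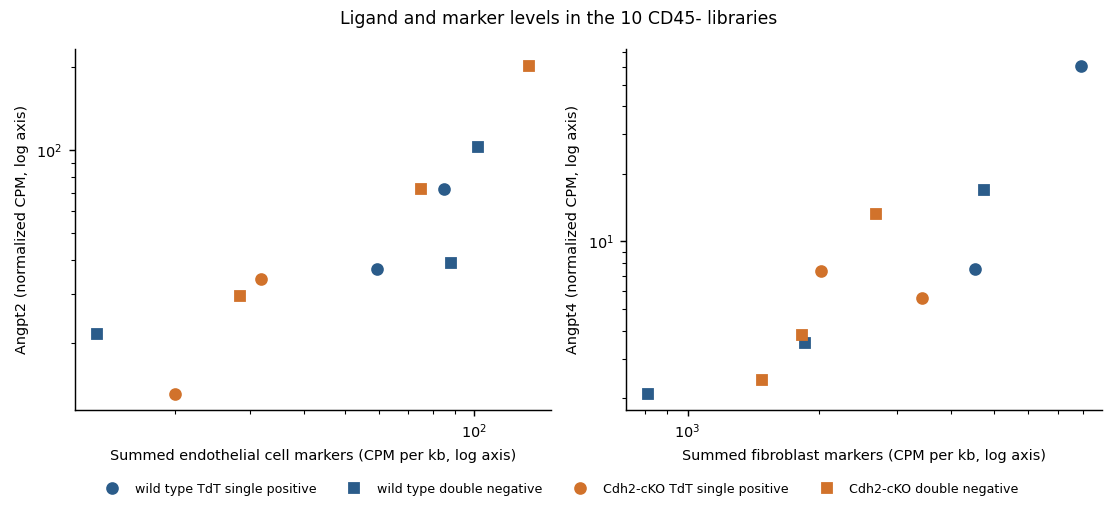
*Angpt2* against the summed endothelial markers (left) and *Angpt4* against the summed fibroblast markers (right) in the 10 CD45- libraries, all on log axes, by population (circles, TdTOSX single positive; squares, double negative) and genotype (blue, wild type; orange, Cdh2-cKO). Both rise together, with Spearman's rho of 0.939 and 0.927.

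Of the 9 receptors listed for these ligands, 6 were higher and 1 lower in CD45- than in CD45+ cells in both genotypes, where 26.4% (wild type) and 27.8% (Cdh2-cKO) of all genes were higher and 24.4% and 22.6% lower. The receptors had a median log2 fold change of 3.39 in wild type and 2.30 in Cdh2-cKO tumors. The largest differences were *Tek*, which encodes TIE2, with 7.86 and 6.12, the orphan receptor *Tie1* with 6.02 and 5.38, and *Flt4* with 5.82 and 4.07. *Aplnr*, *Kdr* and *Flt1* were the others higher in CD45- cells. *Pirb*, a leukocyte receptor that binds angiopoietin-like proteins, was lower, with -2.91 and -3.96. The neuropilins *Nrp1* and *Nrp2*, co-receptors for VEGF, did not pass in either genotype, and *Nrp1* ran from 103 to 345 normalized CPM in CD45- and from 61.5 to 291 in CD45+ libraries.

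Of 7 further ligands of the same families, 6 were tested and 3 were higher in CD45- cells in both genotypes, against the same 26.4% and 27.8% of all genes: *Vegfd*, the other VEGFR3 ligand, with log2 fold changes of 6.46 and 4.91, *Angptl8* with 6.28 and 4.75, and *Angptl1* with 3.10 and 5.54. *Vegfd* stood at 9.87 to 47.1 normalized CPM in CD45- and at most 2.27 in CD45+ libraries. A list of 7 genes for ligand processing and retention also holds lipoprotein lipase (*Lpl*), which ANGPTL4 inhibits, and *Gpihbp1*. Of these 7 genes, 4 were higher in both genotypes (all genes, 26.4% and 27.8%), led by the proprotein convertase *Pcsk5* with 8.32 and 6.32. They include *Ccbe1* and *Adamts3*, which together activate VEGF-C, with 4.75 and 5.24 in wild type. *Furin*, also a convertase, was lower in CD45- cells, with -1.31 and -1.77. Of 8 endogenous inhibitors of vessel growth, 7 were tested and 6 were higher in CD45- cells in both genotypes (all genes, 26.4% and 27.8%), led by thrombospondin-2 (*Thbs2*, 7.42 and 6.34), and *Adamts1* and *Serpinf1*, which encodes PEDF, followed. Thrombospondin-1 (*Thbs1*) had -0.01 in wild type (adjusted p = 0.985). The 12 hypoxia-inducible genes, a list of genes that, like *Vegfa* and *Angptl4*, are known targets of hypoxia signaling, held 2 higher and 3 lower in wild type and 3 higher and 2 lower in Cdh2-cKO tumors, shares near or below those of all genes. *Adm* was the largest with 3.97 and 3.12.

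By Pearson's r of log2 CPM over the 22 libraries, given as a description, the patterns nearest to *Angpt2* were *Vwf* (r = 0.951), *Gpihbp1* (0.932) and *Depp1* (0.921), of which *Vwf* and *Gpihbp1* are endothelial genes. *Pgf* and *Vegfa* were among the nearest 3 of each other (r = 0.874), with *Ndrg1* (0.891) first for *Pgf* and *Klhl21* (0.885) first for *Vegfa*. *Angpt1* was nearest to *Bmpr1a* (0.984), *Angpt4* to *Evc2* (0.973), *Angptl2* to *Wipi1* (0.978), *Angptl4* to *Sept4* (0.981), *Apln* to *Emp2* (0.970), *Vegfc* to *Lmo7* (0.976) and *Vegfb* to *Tmem159* (0.923). These values are over CD45- and CD45+ libraries together and were not computed within either class. Among the ligands themselves r ran from 0.336 for *Vegfa* with *Vegfb* to 0.944 for *Angpt4* with *Angptl4*.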

How the data were processed

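RNA of the 22 sorted populations had been amplified with a SMARTer Ultra Low kit and sequenced on Illumina instruments. Reads were aligned to GRCm38 with STAR 2.0.4b and counted per Ensembl gene with featureCounts 1.45, per the labels. The deposited files hold raw counts per gene, from which the authors also made CPM and RPKM columns. The counts as deposited were used here, and the deposited CPM and RPKM values followed from them to within rounding. Of the 355 ribosomal RNA genes, those of the mitochondrial genome were kept and the rest removed. A gene had to exceed 1 CPM in 2 or more libraries, which 15020 did.

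All 22 libraries were fitted with 8 group means by edgeR 4.0.16 (quasi-likelihood test, TMM factors, R 4.3.3), with calls made where the p adjusted over all genes tested (Benjamini-Hochberg) did not exceed 0.05. Each adjusted p given is from this fit unless another tool is named. Population contrasts average the groups named. Intervals are 95% intervals of the log2 fold change. The steps were tested on simulated data. DESeq2 1.42.0, limma 3.58.1 (voomWithQualityWeights), RLE factors, no filter, a fold threshold, a replicate block, each genotype alone and leaving out libraries were the alternatives. Correlations used 100000 permutations.

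The members and gene lists were chosen with earlier results of these data known. The named genes were all 10 ligands, the 3 genes nearest to each in pattern, and at most 3 genes of a list with the largest change among those called. Other list genes were named after their values were seen. P-values measure the spread between these libraries, since the labels do not tie each to a mouse.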

Additional observations from a re-analysis of the deposited data

How the results depend on the processing

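The counts of ligands called between CD45- and CD45+ cells ran from 7 to 9 in wild type and from 6 to 10 in Cdh2-cKO tumors over the alternatives, against 8 in each. With each genotype fitted alone, 29 population-against-rest differences passed in Cdh2-cKO tumors in place of 19. Calls over all genes rose too, from 1814 to 2836 in TdTOSX single positive and from 6243 to 7254 in double negative cells. In double positive cells they rose from 4093 to 5730 and in CD45 single positive cells from 3365 to 5354. The count for TdTOSX single positive against double negative cells in Cdh2-cKO tumors was 1 under voomWithQualityWeights in place of 0. Leaving out each library in turn gave 8 to 9 (wild type) and 7 to 9 (Cdh2-cKO) ligands between CD45- and CD45+ cells, 20 to 28 and 15 to 23 for each population against the rest, and 0 in all other comparisons. Over all genes these fits gave 6252 to 8075 (wild type) and 6193 to 8170 (Cdh2-cKO) calls between CD45- and CD45+ cells. *Angpt4* between wild type TdTOSX single positive and double negative cells was at -0.001579 without TdTOSX single positive replicate 1, where all libraries gave 2.17, and leaving out single libraries gave up to 3.631. Without that library *Angpt4* was 6.14 on the log2 scale between CD45- and CD45+ wild type cells, and 8.62 without double positive replicate 1. *Pgf* in Cdh2-cKO tumors lost its call in 8 of 22 such fits. *Vegfb* in wild type had an adjusted p of 0.065 without the filter on low counts and 0.0794 with its genotype alone, and in Cdh2-cKO tumors it passed under DESeq2 (0.0327) and voomWithQualityWeights (0.0245). *Vegfa* in Cdh2-cKO tumors passed with its genotype alone (0.00688). The causes were not tested. Over all genes DESeq2 called 500 and 628 genes between TdTOSX single positive and double negative cells where edgeR called 4 and 3, and 522 between genotypes in double negative cells where edgeR called 0. The edgeR counts also moved with the libraries fitted. Without single libraries they reached 473 and 509 in the first comparison and 603 in the second. With each genotype fitted alone edgeR called 0 and 1151 in the first. With the replicate number as a block 25 and 21 population-against-rest differences passed, and the other counts of ligands were those without it. The correlation of the deviations of same-numbered libraries was over 0.1 in 10 of 30 pairs, with a median of 0.0524 and a highest value of 0.595. For libraries with different numbers it was over 0.1 in 6 of 60 pairs, with a median of -0.0212 and a highest value of 0.430. Whether libraries pair by number is thus not settled.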
